A study of Mus musculus with 24 samples.

Results

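The cytosolic ribosomal protein genes of the mouse liver organoids were taken as every gene symbol of the Rpl, Rps, Rplp and Rpsa form in the deposited expression tables, leaving out genes named as pseudogenes and the S6 kinases. This rule found 85 genes, of which 32 encode proteins of the small (40S) subunit or their close paralogs and 53 encode proteins of the large (60S) subunit, among them the 3 stalk proteins. The table of primary hepatocytes and hepatocyte organoids listed 83 of them among 31053 genes, that of cholangiocyte organoids listed 84 among 25876 genes, and that of the Smart-Seq libraries had 84 among 20729 genes, with 82 present in all 3. Rpl10l was listed only with the hepatocytes, and Rpl32l and Rpl6l only in the other 2 tables. No measured value entered the choice of members. The family itself was taken up because Rplp2 at P1 and Rps25 at P5 were already known to pass the adjusted threshold against primary hepatocytes, so those differences are given as a description and support nothing here.

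Liver cells came from wild-type adult BALB/c mice of 6 to 8 weeks. Hepatocytes were enriched on a density gradient with removal of EpCAM+ cells, and were sequenced directly (Pri-Hep) or after growth in Matrigel as hepatocyte organoids (Hep-Orgs) in hepatocyte medium with the Notch pathway inhibitor DAPT and dexamethasone (Dex) to passage 1 (P1), P5 and P10. Cholangiocyte organoids (Cho-Orgs) grew from EpCAM+ cells and were sequenced at P0, P5 and P10. Each of these 7 groups held 3 libraries, and 1 Smart-Seq library was made for each of 3 shapes of Hep-Orgs (round-like, intermediate, grape-like) picked at P0 from the hepatocyte medium without DAPT and Dex. Whether the 3 libraries of a group came from separate mice or from separate cultures is not settled by the sources used here, so the p-values measure the spread between these libraries. Levels are given as FPKM, a fragment count scaled to gene length and to library size, so that each value is relative to the rest of its library.

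Ribosomal proteins assemble with ribosomal RNA into the small subunit, which reads the mRNA, and the large subunit, which joins amino acids. Their mRNAs are among the most abundant of growing cells, and most are known to begin with a C followed by a run of pyrimidines, the 5' terminal oligopyrimidine (TOP) motif, through which mTOR signalling controls their translation. The stalk proteins Rplp0, Rplp1 and Rplp2 form a flexible arm of the large subunit that recruits elongation factors.

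The sequence around the annotated transcript start is shown for the members on which the results below turn, as 15 bases before and 15 bases from the start in RefSeq on GRCm38.p6. Capitals mark a C at the start together with the unbroken pyrimidines after it, where at least 4 follow. Rplp2 at P1 and Rps25 at P5 of Hep-Orgs passed the adjusted threshold against Pri-Hep, and Rps25 and Rpl39 passed it between P5 and P10. Rps18, Rps15a, Rpl12 and Rpl22l1 rose most in Cho-Orgs, and Rpl35a and Rps27 were among the members that differed most between libraries of Cho-Orgs at P10.
Rplp2, chr7:141447636-141447665, plus strand: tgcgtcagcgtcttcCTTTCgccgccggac
Rps25, chr9:44407699-44407728, plus strand: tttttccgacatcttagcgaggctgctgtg
Rpl39, chrX:37085208-37085237, minus strand: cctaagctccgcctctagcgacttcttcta
Rps18, chr17:33955651-33955680, minus strand: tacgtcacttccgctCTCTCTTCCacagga
Rps15a, chr7:118116133-118116162, minus strand: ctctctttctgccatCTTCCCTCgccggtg
Rpl12, chr2:32961697-32961726, plus strand: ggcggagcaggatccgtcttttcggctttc
Rpl22l1, chr3:28805493-28805522, plus strand: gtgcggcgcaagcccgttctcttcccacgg
Rpl35a, chr16:33056467-33056496, plus strand: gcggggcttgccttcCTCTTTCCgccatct
Rps27, chr3:90213634-90213663, minus strand: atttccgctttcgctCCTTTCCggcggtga

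Of these 9 genes, Rplp2, Rps18, Rps15a, Rpl35a and Rps27 carried the run exactly at the annotated start, Rpl35a at 1 of its 3 listed starts. Over the 64 members with a RefSeq start, 14 (21.9%) carried it, against 3.01% of 27018 genes and 2.97% of the 9215 genes that were also tested in the Cho-Orgs table. A run beginning within 5 bases of the start was present in 46.9% of the members and 23.7% of those 9215 genes. Within the 300 bases of each promoter, from 250 before to 50 after the start and on either strand, the letters CGGAAG, the core of ETS factor sites, occurred in 65.6% of members and 36% of the tested genes. The core of YY1 sites, AAGATGG, was found in 15.6% and 8.59%, and TATAAA, the TATA box, in 12.5% and 8.81%. These matches describe the letters of the windows only.

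The 12 libraries of the hepatocyte table held 14068906 to 27160365 fragments each, recovered from the FPKM steps, and no pair of libraries in a group was identical. In the Cho-Orgs and Smart-Seq tables the depth could only be estimated, at about 37400000 to 40310000 fragments. The libraries labelled Pri-Hep did not carry the profile of their label: their summed level of 7 hepatocyte markers was 556.9 to 592 FPKM and that of 5 cholangiocyte markers was 3673.6 to 3781.1 FPKM, close to the Hep-Orgs at every passage (570.7 to 617.3 and 3614.8 to 3834.2 FPKM). Most of the cholangiocyte sum was Spp1, at 3143.7 FPKM in Pri-Hep, while Krt7, Krt19, Sox9 and Epcam were at 48.59, 236.7, 28.58 and 268.7 FPKM. Every comparison with Pri-Hep is therefore a comparison with the libraries so labelled.

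The family took a different share of the summed FPKM in each experiment. In the hepatocyte table, the mean share over 3 libraries was 8.786% ± 0.198 (SD) for Pri-Hep, and for Hep-Orgs it was 8.99% ± 0.0747 at P1, 8.851% ± 0.127 at P5 and 8.8% ± 0.122 at P10. These groups overlapped in their libraries, except that the lowest P1 library (8.904%) lay above 2 of the 3 libraries of each other group. In Cho-Orgs the share was 12.55% ± 0.709 at P0, 15.03% ± 0.215 at P5 and 19.66% ± 0.63 at P10 (n = 3 each), and the groups did not overlap. In the Smart-Seq libraries the grape-like one gave 10.37%, the intermediate one 11.66% and the round-like one 14.36%. The large subunit took the greater part in all 24 libraries, with 11.37% to 12.01% of the summed FPKM against 7.737% to 8.329% for the small subunit in Cho-Orgs at P10. The tables were normalized separately, so their levels are given side by side only.

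**Figure D1:**
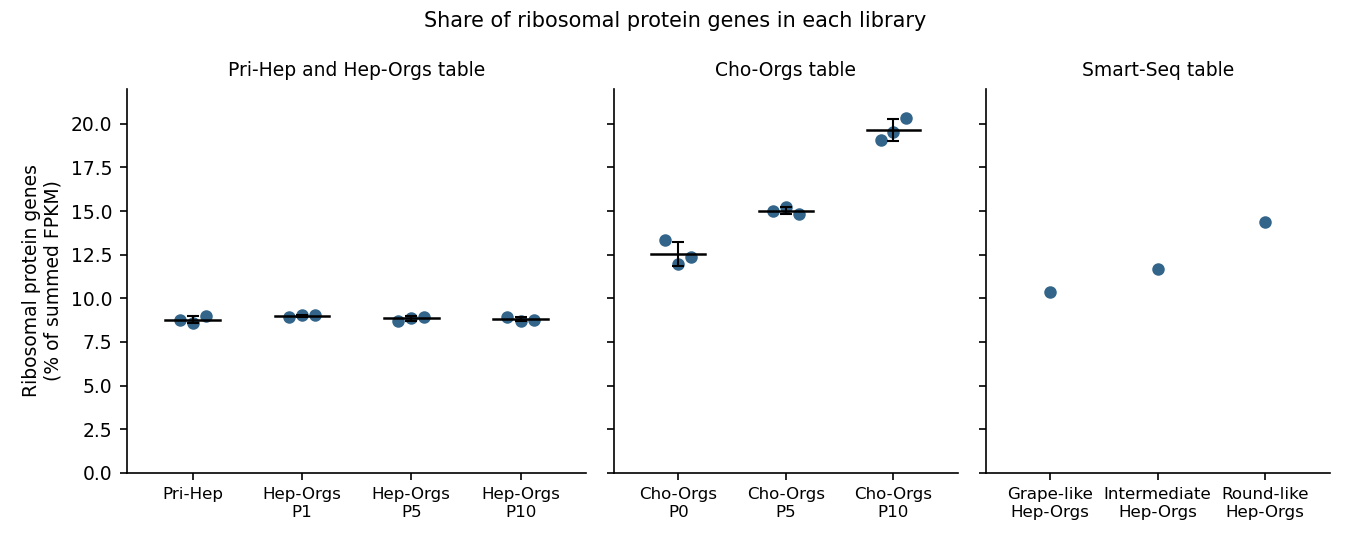
Share of the summed FPKM taken by the ribosomal protein genes in each of the 24 libraries, in percent on an axis from 0, with 1 panel per table. Points are libraries, horizontal lines are group means and bars are SD (n = 3); the Smart-Seq groups have 1 library each. The Pri-Hep and Hep-Orgs libraries lie between 8.59% and 9.041%, while Cho-Orgs step up from 12.55% to 15.03% to 19.66%.

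Levels within the family were far from equal in FPKM, although most of the proteins assemble in equal numbers. The order of members depends on the gene length by which FPKM is scaled. In the hepatocyte table this length was 630 bases for Rps15 and 6270 for Rps15a. The highest means over the 12 hepatocyte libraries belonged to Rps15 (1537.9 FPKM), Rps3a1 (1189), the stalk gene Rplp1, Rpl4 and Rpl23a. The lowest were Rpl39l and Rpl10l, listed at 0 in every library, Rpl3l, the muscle-type paralog of Rpl3, at no more than 0.1675 FPKM in a library, Rpl21 at 0.3427 to 0.8167 FPKM and Rpl29 at 0.3913 to 1.581 FPKM. In Cho-Orgs the highest were Rplp1, Rpl41, which encodes the shortest ribosomal protein, Rpl28, Rps29 and Rpl23a, at group means of 1467.5 to 4914.8 FPKM. The lowest there were Rpl39l and Rpl3l, listed at 0, then Rpl32l, Rpl21 and Rpl29, at group means of 0.7676 to 25.28 FPKM. In the Smart-Seq table Rplp1, Rpl41, Rpl10, Rps26 and Rps29 were highest and Rpl3l, Rpl39l, Rpl32l, Rpl21 and Rpl29 lowest. Across the 82 shared members, mean log2 levels in the hepatocyte and Cho-Orgs tables had a Pearson r of 0.835 and a Spearman rho of 0.69. The points share gene length and sequence copies between the tables, and genes are not independent replicates.

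Rpl21 and Rpl29, both low, shared sequence with many other genes. Of the overlapping 100-base windows in the Rpl21 transcript, 36.75% occurred also in transcripts of other genes, 40 of them in GENCODE M21, of which 39 are annotated as pseudogenes. For Rpl29 the share was 50.08%, with 25 other genes. Other members did not follow this: Rpl7a shared 73.5% with 37 other genes and had a mean of 420.9 FPKM in the hepatocyte table. Rpl13a shared 55.17% with 2 and had a mean of 10.86 FPKM there. The relation of level to shared sequence was not tested. The levels of members with shared sequence depend on how reads with several matches were counted. This is not given in the sources used here, and such levels are uncertain for that reason. Fragments were counted by gene with featureCounts, per the submitters' processing notes.

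Ribosomal protein genes rose together over the passages of Cho-Orgs. From P0 to P10, 80 of the 82 members tested rose and 0 fell, against 41% of all 11593 genes tested that rose and 31.3% that fell (limma, adjusted p under 0.05). The median log2 fold change of the members was 0.643, a 1.56-fold rise, while that of all genes was 0.0688. From P0 to P5, 52 rose and 0 fell, against 34% and 22.6% of all genes, with a median of 0.228 (1.17-fold). From P5 to P10, 75 rose and 0 fell, against 31% and 30.5% of all genes, with a median of 0.38 (1.3-fold). No member was lower at an unadjusted p under 0.05 in any of the 3 comparisons. The estimate was above 0 in 81, 82 and 82 members, and with median-ratio size factors in place of the deposited scaling in 75, 81 and 82. In bulk samples, a change in the make-up of the cells and a change in RNA per cell cannot be told apart.

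The rise was mainly in the later interval. For 69 of the 82 members (84.1%) the step in log2 from P5 to P10 was greater than that from P0 to P5, and for 13 it was the other way. The libraries of 56 members (68.3%) rose without overlap at both steps, against 14.8% of all genes. The small and large subunits moved alike from P0 to P10, with medians of 0.661 over 32 members and 0.625 over 47, and with 31 and 46 of them past the threshold. From P5 to P10 the medians were 0.469 and 0.356, a difference that was not tested.

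The members of the small subunit with the largest rise from P0 to P10 were Rps18, Rps15a and Rps19. Rps18, a protein of the head of the subunit, was at 264.4, 224.7 and 236.5 FPKM at P0, 291.5, 266.8 and 263.3 at P5, and 464.9, 461 and 594.1 at P10. The P0 and P5 libraries overlapped narrowly and every P10 library was higher. Between P0 and P10 the difference in log2 was 1.06 ± 0.101 (SE, adjusted p = 7.78e-06). Rps15a was at 54.54 to 65.84 FPKM at P0, 69.96 to 73.53 at P5 and 117.1 to 128.2 at P10, without overlap at either step. Over both steps Rps15a rose by 1.05 ± 0.0694 in log2 (adjusted p = 5.84e-07). Rps19, the gene most often mutated in Diamond-Blackfan anaemia, rose at both steps, by 0.413 ± 0.082 to P5 (adjusted p = 0.00195) and by 0.94 ± 0.082 from P0 to P10 (adjusted p = 4.03e-06). From P5 to P10, Rps12, Rps9 and Rps20 were also among the 8 members with the largest rise, at 0.782, 0.722 and 0.691 in log2.

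Among the large subunit, Rpl22l1, Rpl12, Rpl26, Rpl35a and Rpl17 rose most from P0 to P10. Rpl12, which sits at the base of the stalk, was at 1163.7, 1045.1 and 1054 FPKM at P0, 1153, 1175.7 and 1128.9 at P5, and 2117, 2187.2 and 2313.2 at P10. The P0 and P5 libraries overlapped and the P10 libraries stood apart, with a log2 fold change from P5 to P10 of 0.935 ± 0.0566 (adjusted p = 9.43e-07) and from P0 to P5 of 0.0851 (adjusted p = 0.224). Rpl7 had the opposite course. Its libraries were at 1052.5, 1001.4 and 1020.8 FPKM at P0, 1421, 1474.9 and 1426.9 at P5, and 1530.6, 1478.5 and 1469.7 at P10. All of the P5 libraries were above P0, while P5 and P10 overlapped. Rpl7 rose by 0.491 ± 0.0436 in log2 from P0 to P5 (adjusted p = 1.26e-05), the most of any member, and its difference from P5 to P10 was 0.0511 (adjusted p = 0.335). Rpl24, Rps19, Rpl35a, Rpl13, Rpl7a, Rps27l and Rpl26 followed it from P0 to P5, at 0.46 to 0.336 in log2. Rpl26, whose protein also binds the p53 mRNA, reached 0.961 ± 0.112 from P0 to P10, Rpl35a 0.912 ± 0.14, and Rpl17, at the exit of the peptide tunnel, 0.873 ± 0.0696.

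**Figure D2:**
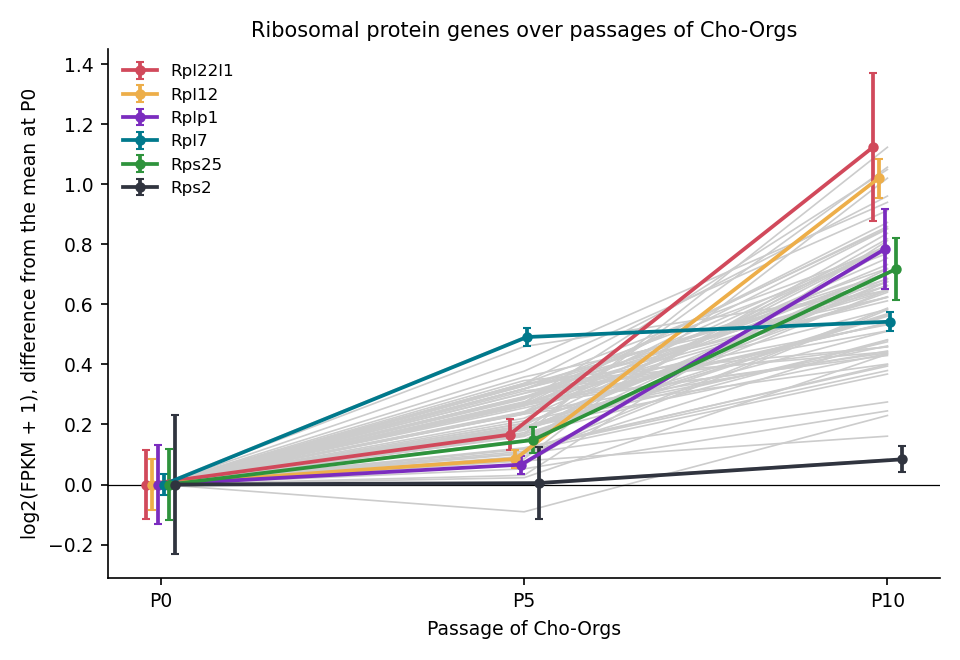
Level of each of the 82 tested members at P0, P5 and P10 of Cho-Orgs, as the difference in log2(FPKM + 1) from its mean at P0. Grey lines are the means of single members and coloured points with bars are the mean and SD (n = 3) of 6 of them, shifted sideways to be seen. Most lines bend upward after P5, Rpl7 flattens after P5, and Rps2 stays near 0 with 0.0836 at P10.

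The 3 stalk genes passed the test from P5 to P10 and not from P0 to P5. Rplp1 was at 3140.8, 2623.6 and 2799.7 FPKM at P0, 3031.6, 2910.8 and 3000.1 at P5, and 4479.5, 4876.5 and 5388.6 at P10. Rplp2 was at 1240.6, 1000.4 and 1082 FPKM at P0, 1248.8, 1211.5 and 1204.9 at P5, and 1820.8, 1935 and 2092.9 at P10. Rplp0 was at 847, 697.4 and 790 FPKM at P0, 805.7, 776.8 and 781.6 at P5, and 1075.9, 1076.3 and 995.3 at P10. For all 3 the P0 and P5 libraries overlapped, with P0 replicate 1 highest at P0, and the P10 libraries were above all others. From P5 to P10 the log2 fold changes were 0.717 ± 0.0813 for Rplp1 (adjusted p = 5.18e-05), 0.672 ± 0.0801 for Rplp2 (adjusted p = 7.1e-05) and 0.412 ± 0.0701 for Rplp0 (adjusted p = 0.000663). From P0 to P5 they were 0.0662, 0.147 and 0.0226 (adjusted p = 0.51, 0.144 and 0.8), and with median-ratio size factors Rplp1 and Rplp0 turned to -0.0109 and -0.0544. Rps25, a small-subunit protein used by certain internal ribosome entry sites, had a similar course, from 542.9 to 631.3 FPKM at P0 to 621.6 to 658.6 at P5 and 888.2 to 1021.3 at P10.

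Rps2 and Rpl29 were the members that did not pass the test from P0 to P10. Rps2, near the channel where mRNA enters, was at 135.4, 111.2 and 98.34 FPKM at P0, 125.9, 107.9 and 110.1 at P5, and 124.8, 117.5 and 120.4 at P10. The 3 groups overlapped, and the log2 difference from P0 to P10 was 0.0836 ± 0.105 (adjusted p = 0.492). Rpl29 was at 20.04 to 24.56 FPKM at P0 and 22.76 to 27.73 at P10, a difference of 0.161 ± 0.106 (adjusted p = 0.194). Rps2 shares 64.74% of its 100-base windows with 36 other genes, and its level is uncertain for that reason. The same holds for members that rose, such as Rps12 (88.86% with 18 genes), Rpl17 (77.07% with 16) and Rps18 (57.27% with 5). Across 80 members, the percent of windows shared and the log2 fold change from P0 to P10 had a Pearson r of 0.0528. Rpl7l1 was the member with an estimate below 0 from P0 to P5, at -0.091 (adjusted p = 0.291).

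The paralogs of core members showed different courses. Rpl22l1 encodes a protein that can take the place of Rpl22, an RNA-binding protein of the large subunit. In Cho-Orgs, Rpl22 was at 139.2, 126 and 131.4 FPKM at P0, 160.2, 172.3 and 153.6 at P5, and 195.4, 204.1 and 222.8 at P10. Rpl22l1 was at 123.5, 105.4 and 115 FPKM at P0, 133.5, 127.8 and 124.3 at P5, and 216.1, 240.3 and 302.2 at P10. In FPKM, Rpl22l1 was thus below Rpl22 in each library at P0 and P5 and above it in each library at P10. Which of the pair is higher depends, in every table, on the gene lengths used for scaling. In the hepatocyte table these were 2911 bases for Rpl22 and 1989 for Rpl22l1. Rpl22l1 had the largest rise of all members from P0 to P10, 1.12 ± 0.109 in log2 (adjusted p = 8.84e-06), and Rpl22 rose by 0.645 ± 0.0657 (adjusted p = 1.22e-05). Rpl22 was the higher of the pair in all 12 libraries of the hepatocyte table, at 126.9 to 144.7 FPKM against 56.98 to 66.05 FPKM. In the Smart-Seq table Rpl22l1 was the higher in all 3 libraries, at 235.8 (grape-like), 363.2 (intermediate) and 332.3 FPKM (round-like) against 104.9, 123.2 and 134.2 FPKM.

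Rps27l, a p53-inducible paralog of Rps27, was at 29.14 to 33.62 FPKM at P0 and 39.24 to 45.65 FPKM at P10 of Cho-Orgs, and rose by 0.442 ± 0.0752 in log2, while Rps27 rose by 0.854 ± 0.119 (adjusted p = 0.000442 and 0.000115). Levels in the hepatocyte table were 81.74 to 98.6 FPKM for Rps27l and 287.1 to 409.2 FPKM for Rps27. Rpl7l1, a paralog of Rpl7 that acts in ribosome assembly, was at 26.42 to 35.78 FPKM in Cho-Orgs and 27.65 to 32.3 FPKM in the hepatocyte table, and rose from P0 to P10 of Cho-Orgs by 0.23 ± 0.0701 (adjusted p = 0.0137). Rpl3l was listed at 0 in Cho-Orgs and in the Smart-Seq libraries. Rpl39l, a paralog known from the testis, was listed at 0 in both bulk tables and at no more than 0.1743 FPKM in the Smart-Seq libraries. Their partners rose from P0 to P10 of Cho-Orgs, Rpl3 by 0.587 and Rpl39 by 0.676 in log2 (adjusted p = 2.47e-05 and 6.38e-05).

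Some libraries of Cho-Orgs stood apart in the family as a whole. Replicate 1 at P0 was above its group mean in 81 of the 82 members, by a median of 0.105 in log2, and replicate 3 at P10 was above its group mean in 63 of 82, by more in members with a short coding sequence. At P10, Rps27 was at 1357.1, 1401.1 and 1880.6 FPKM, Rpl35a at 182.7, 203.7 and 266.4 FPKM, and Rpl30 at 319.3, 320.9 and 438.7 FPKM. Across 80 members with a known coding length, the excess of replicate 3 and the coding length had a Pearson r of -0.421 and a Spearman rho of -0.509; members of 1 library share its depth and fragment sizes. Without replicate 3 at P10, an alternative chosen after seeing the data, 53, 79 and 69 members rose from P0 to P5, from P0 to P10 and from P5 to P10. When replicate 2 or replicate 3 was left out of every group, 25 and 29 members passed from P0 to P5, and 65 did without replicate 1.

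Other genes of the translation machinery differed in how far they shared this course, and their counts are to be read beside the 41% of all genes that rose and the 31.3% that fell from P0 to P10. Fau, which encodes a ribosomal protein fused to a ubiquitin-type protein, rose from P0 to P10 by 0.626 in log2 (adjusted p = 8.47e-07). All 6 listed ribosome-associated and nascent-chain genes rose, led by Rack1, a scaffold on the small subunit, at 0.765 ± 0.0499. Of 6 elongation factors 5 rose, with Eef1b2 at 1.06, Eef1a1 at 0.747 and Eef2 at 0.64, and Eif5a did not pass. Of 28 initiation factors 20 rose and 1 fell, with Eif5, Eif2s2, Pabpc1 and Eif3c at 1.08 to 0.785. Of 30 ribosome biogenesis genes, which process ribosomal RNA and assemble subunits, 27 rose and 0 fell at a median of 0.636, led by Tsr1 (1.18), Gnl3 (1.17), Npm1 (1.05) and Polr1b (1.02). From P0 to P5, 6 of these 30 rose and 2 fell at a median of 0.0567, against 34% and 22.6% of all genes, and from P5 to P10, 27 rose at a median of 0.545, against 31% of all genes. Among 10 tested regulators of ribosomal protein genes or their translation, 8 rose, with Myc at 2.19 ± 0.0485 and Eif4ebp1, an inhibitor of cap-dependent initiation, at 1.19 ± 0.0976.

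The mitochondrial ribosomal proteins, which serve a separate ribosome, had mostly lower estimates. Of 78, 11 rose and 33 fell from P0 to P10, against 41% and 31.3% of all genes, at a median of -0.152, with the largest falls in Mrpl18, Mrpl42, Mrps18c and Mrpl11 at -0.886 to -0.6. All 7 proliferation markers fell at both steps, and their summed level was 305.1 to 450.2 FPKM at P0, 168.4 to 173.1 at P5 and 80.75 to 87.67 at P10. The summed level of the 7 hepatocyte markers was 5012.4 to 6029.2 FPKM at P0, 172.8 to 201 at P5 and 75.03 to 80.44 at P10, and that of the 5 cholangiocyte markers 4935.9 to 6322.5, 3264.7 to 3401.2 and 3105.2 to 3140. From P0 to P10, 6 of the 7 hepatocyte markers fell. Alb had group means of 4994.1, 79.5 and 0.5838 FPKM, while those of Hnf4a were 64.35, 60.93 and 56.36 FPKM. The cholangiocyte sum followed Spp1, whose group means were 3682.5, 804.9 and 527.4 FPKM, while those of Krt7 were 248, 688.7 and 919.7 and those of Krt19 were 1044.9, 1339.4 and 1401.9 FPKM. Epcam had group means of 450.7, 489.8 and 259.3 FPKM, and Sox9 of 14.81, 16.28 and 9.371 FPKM. Of these 5 markers, 2 rose and 3 fell from P0 to P10. The macrophage markers summed to 41.9 to 47.53, 71.76 to 76.92 and 9.211 to 9.883 FPKM, and nearly all of the sum at P5 and P10 was Cd68. At P0 the mean of Cd68 was 30.35 FPKM and that of Lyz2 was 13.17 FPKM. Lyz2 was listed at 0 in every library at P5 and P10, while the mean of Cd68 was 74.46 and 9.531 FPKM. The Kupffer cell markers Clec4f and Vsig4 were listed at 0 in every Cho-Orgs library. The endothelial list, the stellate cell list and the blood list summed to at most 0.2315, 1.018 and 3.004 FPKM. The part of these shifts in cell type and proliferation in the rise of the ribosomal protein genes was not tested.

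**Figure D3:**
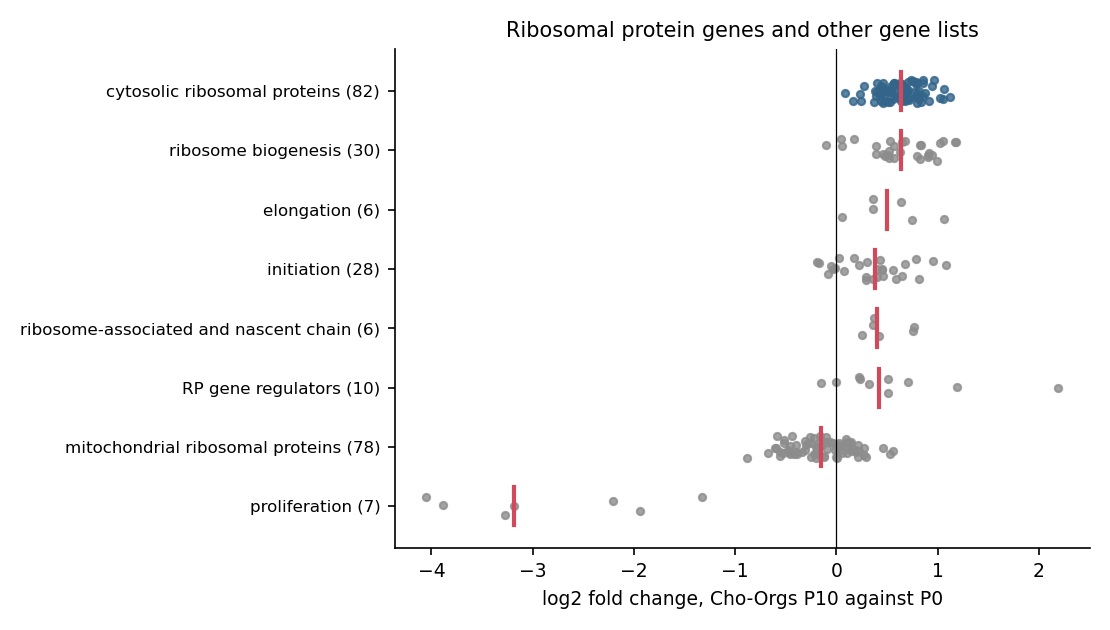
Log2 fold changes from P0 to P10 of Cho-Orgs for the 82 tested ribosomal protein genes and for 7 other gene lists, with the number of genes tested in brackets. Points are genes, scattered vertically to be seen, and red lines are medians. The ribosomal protein genes and the biogenesis genes have medians of 0.643 and 0.636, the mitochondrial ribosomal proteins lie around -0.152, and all 7 proliferation markers are below -1.

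Group differences of the family in the hepatocyte table were small, and few members passed the adjusted threshold. At the adjusted threshold, 1 of 79 tested members was called between Hep-Orgs P1 and Pri-Hep (0.0091% of 10986 genes), 1 between P5 and Pri-Hep (0.0091%), 0 between P10 and Pri-Hep (0%), 0 between P5 and P1 (0%), 0 between P10 and P1 (0%) and 2 between P10 and P5 (0.0273%). By the moderated F test over the 4 groups 2 members passed (0.0182% of all genes), while 80 of 82 did in Cho-Orgs (82.8%). With limma-voom on the recovered fragments, the 6 comparisons in that order called 7, 10, 0, 0, 8 and 11 members, against 0.273%, 0.355%, 0%, 0%, 0.264% and 0.255% of all genes. These calls are a description, since the family was taken up from this table.

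At an unadjusted p under 0.05 the same comparisons picked 29 members against 8.29% of all genes, 27 against 10.8%, 8 against 6.64%, 14 against 3.97%, 28 against 8.98% and 32 against 11.5%. The median log2 fold changes of the members were 0.0436, 0.002, 0.0151, -0.0372, -0.0178 and 0.0132. High levels give a smaller counting error, so members of at least 50 FPKM were also set beside the 736 other genes of that level. Of the members, 36.6%, 35.2%, 8.45%, 19.7%, 35.2% and 39.4% had an unadjusted p under 0.05, and of the other genes 17.5%, 21.7%, 7.07%, 4.62%, 17.8% and 23.9%. At P1 against Pri-Hep 21 of the 29 members were higher, and at P5 against P1 13 of the 14 were lower.

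The stalk genes were high at P1 and P5 of Hep-Orgs and overlapped the libraries labelled Pri-Hep at P10. Rplp2 was at 98.95, 100.1 and 104.6 FPKM in Pri-Hep, 115.8, 119 and 116.7 at P1, 113.2, 111.2 and 116.3 at P5, and 104.9, 104.4 and 100.6 at P10. All P1 and P5 libraries lay above all Pri-Hep and P10 libraries, by 0.209 ± 0.0263 in log2 at P1 and 0.165 ± 0.0263 at P5 against Pri-Hep, about 1.16-fold and 1.12-fold. Rplp0 was at 425.3 to 492.7 FPKM in Pri-Hep, 518.2 to 528 at P1, 503 to 511.5 at P5 and 477.6 to 494.6 at P10. Rplp1 was at 949.7 to 1058.8, 1060.3 to 1154.8, 1103.8 to 1154.9 and 998.7 to 1076.7 FPKM in the same order. For both, P1 and P5 lay above Pri-Hep without overlap and P10 overlapped Pri-Hep. Rps18 and Rps6 had the same shape. Rps18 was at 13.84 to 16.89 FPKM in Pri-Hep, 17.79 to 19.82 at P1, 19.54 to 20.21 at P5 and 13.97 to 16.89 at P10. None of the differences of Rplp0, Rplp1, Rps18 and Rps6 passed the adjusted threshold, with 0.371 in log2 (adjusted p = 0.162) for Rps18 and 0.171 (adjusted p = 0.282) for Rplp0, at P5 and P1 against Pri-Hep.

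Rps25, Rpl39, Rpl10 and Rps24 had the reverse shape, of which the first 2 passed the threshold. Rps25 was at 196, 201.8 and 199.1 FPKM in Pri-Hep, 180.8, 187.2 and 189.8 at P1, 171.6, 174.4 and 176.8 at P5, and 198, 194.5 and 191.6 at P10. P5 was lowest, P1 lay between, and Pri-Hep and P10 overlapped. The log2 difference was -0.19 ± 0.0225 from Pri-Hep to P5 and 0.159 ± 0.0225 from P5 to P10 (adjusted p = 0.0403 for the latter). Rpl39, a very small protein beside the peptide exit tunnel, was at 210.2, 212.1 and 227.1 FPKM in Pri-Hep, 181.8, 187.5 and 201.9 at P1, 172, 164.6 and 172.9 at P5, and 241.1, 217.3 and 208.9 at P10. P5 was again the lowest group without overlap, and the log2 rise from P5 to P10 was 0.385 ± 0.0512 (adjusted p = 0.0317). Rpl10, in the core of the large subunit, was at 753.1 to 781.6, 716.7 to 752.6, 694.6 to 728.8 and 759.4 to 791.7 FPKM in the same order of groups, with an adjusted p of 0.132 from P5 to P10. None of the calls in this table was kept when any replicate number was left out of all groups.

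**Figure D4:**
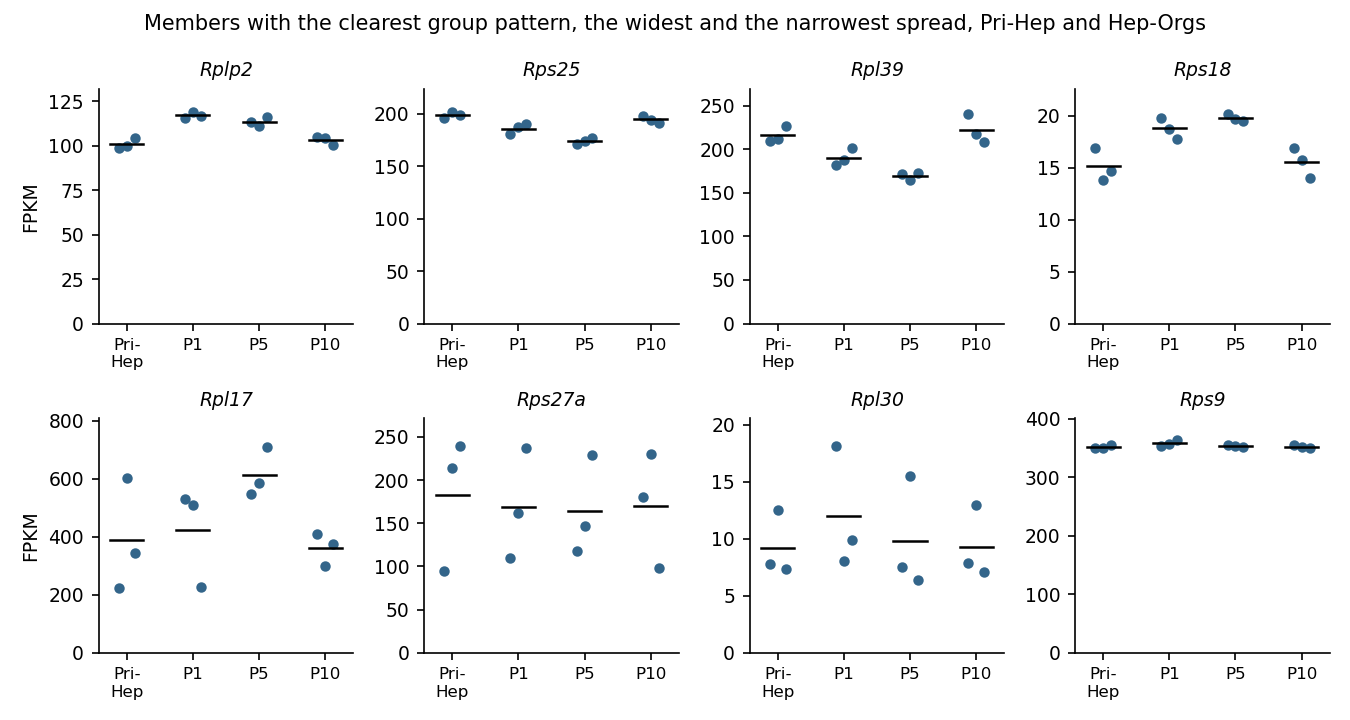
FPKM of 8 members in each library of Pri-Hep and Hep-Orgs P1, P5 and P10, on axes from 0. Points are libraries and lines are group means (n = 3). The upper row holds 4 members whose groups differ in a shared pattern, with Rplp2 between 98.95 and 119 FPKM; the lower row holds 3 members with wide spread inside every group, such as Rps27a between 95.19 and 239.7 FPKM, and Rps9, the narrowest.

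In the hepatocyte table the SD of single libraries within groups and the SD of the group means were of similar size. Means of 3 libraries vary less than single libraries, so similar SDs do not show that the groups were alike. The share of members with the larger SD within groups was below that of other genes. The median SD within groups was 0.0501 in log2 and the median SD of the group means 0.0463, and the first was larger in 47 of 79 members (59.5%), against 84.2% of all genes and 70.2% of the 736 other genes of at least 50 FPKM. Both medians were larger in the 71 members of at least 50 FPKM than in those 736 genes. Within groups they were 0.0449 against 0.0306, and for the group means 0.0452 against 0.0237. For the members tested in Cho-Orgs the median SD was 0.0762 within groups and 0.324 for the group means. The spread within groups was larger there in 2 of 82 members, Rps2 and Rpl29, against 12.2% of all genes. The ratio of spread between to spread within groups was highest in the hepatocyte table for Rps25 (3.2), Rplp2 (3.09) and Rpl39 (2.37). Rps9, Rps24 and Rpl4 were the most even there, with SDs within groups of 0.0141, 0.0186 and 0.022 in log2, and Rps9 stayed between 348.9 and 363.4 FPKM in all 12 libraries. In Cho-Orgs Rpl7, Rpl23 and Rps10 were the most even within groups, at 0.0325, 0.0339 and 0.0349, and Rpl32l, Rpl35a, Rpl30, Rpl21 and Rps27 the least, at 0.235 to 0.175.

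Rps27a, Rpl17, Rpl30, Rpl29 and Rpl35a had the widest spread between libraries in the hepatocyte table, with SDs within groups of 0.604, 0.521, 0.505, 0.299 and 0.174 in log2. Rps27a, made as a fusion to ubiquitin, was at 95.19, 214 and 239.7 FPKM in Pri-Hep, 109.5, 161.7 and 236.9 at P1, 117.4, 146.3 and 228.5 at P5, and 180.8, 229.7 and 97.85 at P10. Replicate 1 was lowest in 3 of the 4 groups and replicate 3 at P10, so that every group spanned nearly the same range. Rpl17 was at 222.5, 601.1 and 342.4 FPKM in Pri-Hep, 528.6, 510.3 and 225.6 at P1, 547.1, 583.9 and 710.4 at P5, and 407.9, 298.7 and 373.8 at P10. Its P5 mean of 613.8 FPKM was the highest of the groups and overlapped Pri-Hep, with an adjusted p of 0.451 for that difference. Rpl30 was at 6.419 to 18.13 FPKM, with 1 library above 12 FPKM in each group.

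Several members with wide spread share sequence with other genes. Rpl17 shared 77.07% of its 100-base windows with 16 other genes and Rps27a 69.14% with 4. The 18 members with no more than 1 such gene had a median SD within groups of 0.0437 (0.0141 to 0.103), the 50 members with 2 to 9 a median of 0.0513 (0.0186 to 0.604), and the 11 with 10 or more a median of 0.108 (0.0324 to 0.521). Across the 79 members, the SD and the number of genes had a Pearson r of 0.341 and a Spearman rho of 0.0863. Its part in the spread was not tested.

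**Figure D5:**
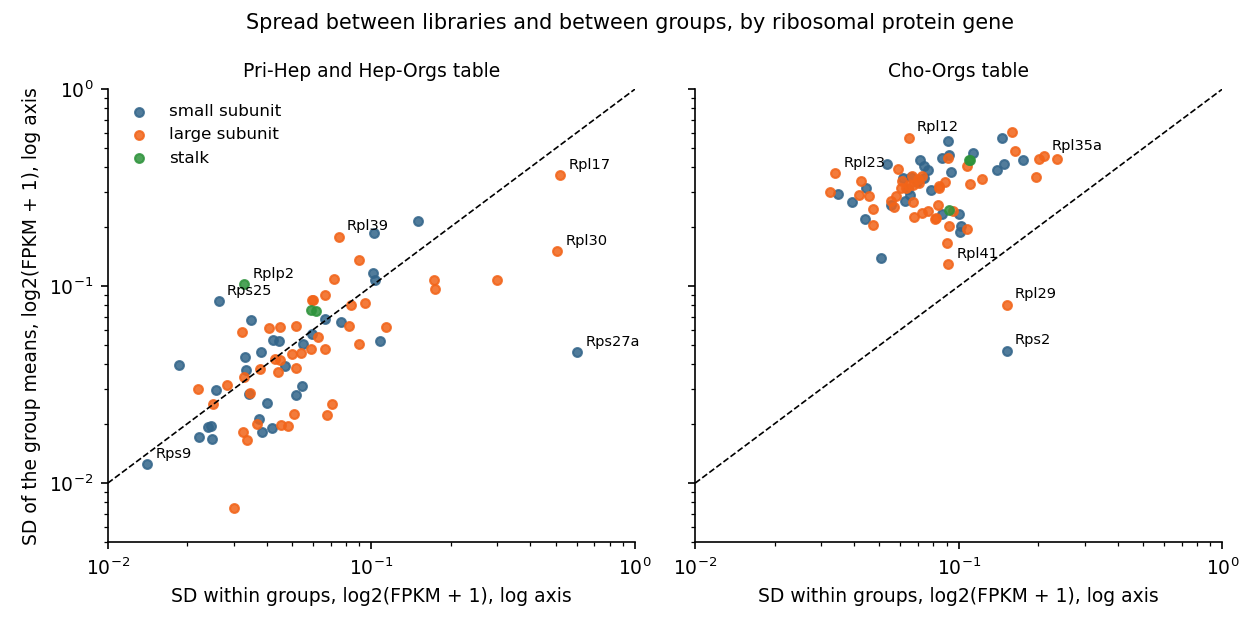
SD of log2(FPKM + 1) within groups (horizontal) against SD of the group means (vertical) for each tested member, both on log axes, in the hepatocyte table (left, 79 members) and the Cho-Orgs table (right, 82 members). Points are coloured by subunit and the dashed line marks equal values. On the left 47 of 79 points lie below the line, on the right only Rps2 and Rpl29.

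In the Smart-Seq libraries the family was lowest in grape-like and highest in round-like Hep-Orgs. With 1 library per subtype there is no replicate check and no test. Of the 81 members with a mean of at least 1 FPKM, 74 increased in the order grape-like, intermediate, round-like, 5 were lowest and 2 highest in the intermediate library (Rpl22l1 and Rpl26). Grape-like against round-like, the median log2 ratio was -0.493, while that of all 11853 genes was -0.143, and all 81 ratios were below 0. With median-ratio size factors the median was -0.331 and 79 of 81 were below 0, while the median of all genes moved from -0.143 to -0.000744. Intermediate against round-like, 79 were below 0 with a median of -0.239, but with median-ratio size factors only 57 were and the median was -0.051, with the median of all genes moving from -0.128 to 0.0373. Grape-like against intermediate, 76 were below 0 as deposited, 70 as TPM and 78 with median-ratio size factors, at medians of -0.237, -0.151 and -0.263.

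No member passed a ratio of 2-fold in either direction. Of all genes, 12.8% were higher and 8.61% lower past 2-fold in grape-like against round-like organoids, 3.73% and 2.24% in intermediate against round-like, and 9.53% and 7.15% in grape-like against intermediate. Past 1.5-fold, 24, 2 and 3 members were lower in the same order of ratios and 0 higher. Furthest below 0 in grape-like against round-like organoids were Rpl18 (-0.897 in log2), Rplp0 (-0.878), Rps2 (-0.855), Rpsa (-0.82), also known as the laminin receptor, and Rpl3 (-0.81), and nearest to 0 were Rps29 (-0.127) and Rpl35a (-0.126). Rplp0 was at 477.3 FPKM in grape-like, 789.4 in intermediate and 878.1 in round-like organoids, with the grape-like library apart from the other 2. Its stalk partners were more even, Rplp1 at 1932.2, 2249 and 2416.5 FPKM and Rplp2 at 624.3, 735 and 920.9 FPKM. Intermediate against round-like, Rpl29, Rpl7l1, Rps26, Rpl8 and Rpl13 had the lowest ratios, at -0.666 to -0.436.

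Other lists were lower in the same comparison. Grape-like against round-like, the median log2 ratio was -0.71 for the 30 biogenesis genes, of which 8 were lower past 2-fold, -0.646 for the elongation factors, -0.426 for the initiation factors and -0.526 for the mitochondrial ribosomal proteins. The grape-like library also carried the highest level of other cell types: the 6 macrophage markers summed to 7787.6 FPKM in grape-like, 2323.6 in intermediate and 1226.6 in round-like organoids, the stellate cell markers to 812.4, 199.4 and 140.9 FPKM, and the endothelial markers to 60.64, 24.51 and 10.26 FPKM. Hepatocyte markers summed to 4747.2, 7215.2 and 1162.2 FPKM, cholangiocyte markers to 845.4, 3351.4 and 2743 FPKM, and proliferation markers to 390.4, 304.5 and 546.5 FPKM. Within the hepatocyte sum, Alb was at 3649.4, 5729.2 and 564.9 FPKM. Of the 6 hepatocyte markers with a mean of at least 1 FPKM, 4 were higher past 2-fold in grape-like against round-like organoids. Ttr (262.6, 788.3 and 492.1 FPKM) and Hnf4a (22.9, 79.07 and 36.53 FPKM) were lower in grape-like than in round-like organoids. Spp1 alone put the intermediate library highest for cholangiocyte markers (2899.4 against 2106.9 FPKM in round-like organoids), and Krt7, Krt19, Sox9 and Epcam were each highest in the round-like library. The part of these cells in the levels of the ribosomal protein genes was not tested.

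The order of members by change differed between the experiments in Cho-Orgs and in the Smart-Seq libraries. All 81 members had a positive difference both from P0 to P10 of Cho-Orgs and from grape-like to round-like Hep-Orgs, against 54.6% of 10767 genes with the same sign in both, which the direction of nearly the whole family in each fixes. Across the members the sizes of the differences had a Pearson r of -0.192. Rps2, with 0.0836 from P0 to P10, was among the 3 members furthest below 0 in grape-like against round-like organoids, and Rpl35a, with 0.912, was the nearest to 0. The 14 members with a pyrimidine run at the annotated start rose by a median of 0.698 from P0 to P10 of Cho-Orgs (0.475 to 1.06) and the 47 without by 0.64 (0.0836 to 1.12), with no test of the difference. Coding length and the log2 fold change from P0 to P10 had a Pearson r of -0.293 over 80 members.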

How the data were processed

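The authors deposited 3 tables of FPKM, for Pri-Hep and Hep-Orgs (12 libraries), Cho-Orgs (9) and Smart-Seq Hep-Orgs (3). The submitters' processing notes name mm10, featureCounts 2.0.3 and edgeR 3.40.2; the aligner is not given in the sources used here. The members and lists were chosen with earlier results of these data known.

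Values were compared as log2(FPKM + 1), so fold changes of low genes are understated. Genes of at least 1 FPKM in at least 3 libraries were fitted with limma 3.58.1 in R 4.3.3 (eBayes with trend, all groups of a table together, two-sided, Benjamini-Hochberg over all genes tested, threshold 0.05). This kept 79 of 83 members in the hepatocyte table and 82 of 84 in the Cho-Orgs table. The Smart-Seq ratios were not tested, and 81 of 84 members had a mean of at least 1 FPKM. Each fit was checked on simulated data. Fragments in the hepatocyte table were whole within 0.05 for 100% of values, and limma-voom was run on them. Sequence sharing used 100-base windows of GENCODE M21 transcripts, and 64 of 85 members matched a RefSeq start. Tables and figures were made with pandas 2.3.3, numpy 2.4.6, matplotlib 3.10.9 and scipy 1.17.1 under Python 3.11.15.

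Named members were, per table, the 5 highest and 5 lowest by level and the 5 widest and 3 narrowest by spread; up to 8 per direction by fold change among those past the threshold; the paralog pairs; the stalk genes and Rps25; up to 5 per direction in each Smart-Seq ratio; and up to 4 genes of each other list. Rps18, Rps6, Rpl10 and Rps24 in the hepatocyte table were named after their values were seen. The alternatives were another pseudocount, filter, fold minimum or scaling, no trend, a replicate block, 2 groups only, and leaving out libraries. Some genes of the lists are not reported here by name.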

Additional observations from a re-analysis of the deposited data

Results flagged for a closer look

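Between P5 and P10, 10 ribosomal protein genes were lower at P10 in every library of Hep-Orgs and higher at P10 in every library of Cho-Orgs, without overlap of the passages in either table. They make up 12.7% of the 79 members tested in both tables, and 4.18% of 9847 genes moved in these directions without overlap. Nearly all members were higher at P10 of Cho-Orgs, so that they could be opposite in this direction only. Without overlap, 77 of 82 members were higher in Cho-Orgs, and 11 of 79 were lower in Hep-Orgs. The share of 12.7% is thereby largely fixed in advance, and its excess over 4.18% is no separate result. The log2 fold changes in Hep-Orgs were -0.0683 for Rplp0, -0.13 for Rplp1 and -0.135 for Rplp2, the 3 stalk genes, where Cho-Orgs had 0.412, 0.717 and 0.672. For the small-subunit genes they were -0.0809 for Rps15, -0.337 for Rps18 and -0.0651 for Rps6, the substrate of S6 kinase, beside 0.274, 0.876 and 0.219 in Cho-Orgs. Among the large-subunit genes they were -0.0988 for Rpl11, -0.0611 for Rpl15 and -0.771 for Rpl17, beside 0.173, 0.338 and 0.607. The remaining gene is not reported here by name. In the hepatocyte table Rpl17 had a wide SD within groups of 0.521 in log2, and Rps18 was low, at 13.84 to 20.21 FPKM. None of the 10 differences in Hep-Orgs passed the adjusted threshold. The difference between the organoid types was not tested, since the tables were normalized separately.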

How the results depend on the processing

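Calls in the hepatocyte table depended on the processing, and the cause was not tested. For P1 against Pri-Hep, P5 against Pri-Hep and P10 against P5 (1, 1 and 2 members as reported), a fold minimum of 1.2 left 0, 0 and 1, no trend left 0, the replicate block 0, fits of the 2 groups alone 0, and leaving out 1 replicate number 0 to 0. All genes above 0 FPKM left 0 in the first and last of these. P5 against Pri-Hep had 3 with a mean of at least 5 FPKM and 2 as TPM. Limma-voom called 7, 10 and 11, and 8 for P10 against P1. The F test (2) gave 0 with all genes, without trend, with the block and in each fit without a replicate (0 to 0), and 19 with limma-voom.

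In Cho-Orgs, P5 against P0 (52) had 30 at the fold minimum of 1.2, 34 with median-ratio size factors and 25 to 65 without a replicate. Median-ratio size factors moved the median of all genes from 0.0617 to -0.00332 for P5 against P0 and from 0.0688 to -0.0224 for P10 against P0, and the members' medians to 0.151 and 0.535. The latter was 0.712 when scaled to the sum of other genes, an alternative added after seeing the data, and 0.581 to 0.693 without a replicate.

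Without a replicate, the members' median was 0.0136 to 0.0526 for P1 and -0.00236 to 0.0466 for P10 against Pri-Hep. Sign changes were seen without replicate 2 for P10 against Pri-Hep, where leaving out a replicate gave -0.00236 to 0.108 for Rplp0 and -0.00409 to 0.0483 for Rplp1. They were also seen in Cho-Orgs P5 against P0 for Rplp0 (-0.0544 with median-ratio size factors, -0.0437 to 0.07 without a replicate, lowest without replicate 2) and Rplp1 (-0.0109 with median-ratio size factors). Of the alternative values for named members, 784 kept direction and call, 39 lost the call, 12 gained it and these 5 changed sign. Smart-Seq counts past 1.5-fold were 24, 2 and 3, and medians with median-ratio size factors -0.331 and -0.051.

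The replicate numbers were not taken as pairs: deviations of same-numbered libraries correlated at a median of -0.00155 over 18 pairs and -0.00626 over 9. With the replicate block, 49, 80 and 74 members rose in Cho-Orgs.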

Other observations

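Pseudogenes of ribosomal proteins with their own entry rose with the family in Cho-Orgs. Of 6 tested, 5 rose from P0 to P10, against 41% of all genes, at a median of 0.724, with Rps12-ps24 at 0.837, Rps18-ps4 at 0.811, Rps15a-ps5 at 0.793 and Rpl34-ps1 at 0.654 in log2. Their summed level was 26.71 to 27.85 FPKM at P0, 27.82 to 28.67 at P5 and 44.02 to 48.46 at P10. Most of this sum was Rpl34-ps1, with group means of 18.77, 19.8 and 30.08 FPKM. Rps12-ps24 and Rps15a-ps5 were low, with means of 0.9058 and 0.6765 FPKM at P0 and 2.343 and 1.978 FPKM at P10. The P0 and P10 libraries of Rps15a-ps5 overlapped. In the hepatocyte table the pseudogenes summed to 152.2 to 191.8 FPKM, and none was called. Reads of a gene and of its copy cannot be told apart where the sequences are the same.

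In the hepatocyte table, the log2 difference of P1 from Pri-Hep and that of P5 from P10, which share no library, had a Pearson r of 0.46 and a Spearman rho of 0.479 across the 79 members, with the same sign in 49 (62%). Across the 736 other genes of at least 50 FPKM the values were 0.469, 0.565 and 70%.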
